A study of Mus musculus with 4 samples.

Results

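Genes that mark the olfactory system were examined in mRNA of the medial prefrontal cortex (mPFC) from depression-like mice and controls. The group holds 8 genes of 17778 in the table. Doc2g, A230065H16Rik (now named Lbhd2), Eomes, Tbx21 and Cdhr1 mark mitral and tufted cells of the olfactory bulb, and Omp, Stoml3 and Rtp1 mark olfactory sensory neurons. The genes were found by their symbols, and they had been chosen by their lower means in CUMS than in control in these same data. Their difference between the groups is therefore a description with no test.

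The mice were C57BL/6 males (C57BL/6J in the study's methods), put into the study as juveniles. The CUMS group (2 libraries) had lived under chronic unpredictable mild stress for weeks and had shown depression-like behavior in tests of sucrose preference, Y-maze and forced swimming, whereas the control group (2 libraries) lived without these stressors. The stressed mice that did not become depression-like were left out by the study, so that the CUMS group stands for vulnerable mice. The mPFC of both sides was taken on the day after the behavior tests. The deposited value of a gene was 1 mean RPKM (reads per length of the gene in kilobases, scaled to library depth) per group, so that values of single mice cannot be shown and the spread among mice is unknown. The sources used here do not say whether a library came from 1 mouse. A fragment stands here for 1 counted read or read pair. The depth estimated from the low values came to 7.39 M (mega) fragments for each control library and 7.44 M for each CUMS library, and the intervals below are exact 95% intervals of counting error alone on these estimates. All 14 markers of cortical excitatory neurons were detected in both groups. So were all 14 genes of striatal projection neurons, such as Ppp1r1b at 191 RPKM in control and 170 RPKM in CUMS. Detection therefore cannot show how closely the tissue was limited to cortex. Slc17a7, the vesicular glutamate transporter of cortical excitatory neurons, was at 635 RPKM in control and 791 RPKM in CUMS.

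Olfactory sensory neurons sit in the epithelium of the nose and send their axons into the glomeruli of the olfactory bulb. There they contact mitral and tufted cells, the output neurons of the bulb, whose axons run to the olfactory cortex. The cell bodies of these neurons do not lie in the neocortex. Several of the genes are also used elsewhere: Eomes by progenitors of the developing cortex and by lymphocytes, Tbx21 by lymphocytes, and Cdhr1 by photoreceptors.

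The 8 genes lie on 8 different chromosomes, and all coordinates here are RefSeq spans on GRCm38 (mm10). The promoters of 6 of them are given by RefSeq (GRCm38.p6). They were Doc2g, Lbhd2, Eomes, Tbx21, Cdhr1 and Stoml3. The 250 bases before the start site are shown for the 3 genes of highest level, 5' to 3' on the strand of the gene. They are Doc2g (chr19:4003135-4003384, plus strand), Lbhd2 (chr12:111406559-111406808, plus strand) and Cdhr1 (chr14:37098348-37098597, minus strand). The window of Lbhd2 precedes a start site that lies inside the annotated span of the gene. Capitals mark letters found for a motif of Ebf factors, which are regulators of olfactory neurons, or for a T-box motif, the kind bound by Eomes and Tbx21.
Doc2g: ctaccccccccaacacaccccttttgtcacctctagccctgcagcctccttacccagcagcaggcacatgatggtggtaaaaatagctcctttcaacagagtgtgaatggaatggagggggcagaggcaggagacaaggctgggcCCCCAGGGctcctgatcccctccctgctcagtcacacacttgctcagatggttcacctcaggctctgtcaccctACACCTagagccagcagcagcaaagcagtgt
Lbhd2: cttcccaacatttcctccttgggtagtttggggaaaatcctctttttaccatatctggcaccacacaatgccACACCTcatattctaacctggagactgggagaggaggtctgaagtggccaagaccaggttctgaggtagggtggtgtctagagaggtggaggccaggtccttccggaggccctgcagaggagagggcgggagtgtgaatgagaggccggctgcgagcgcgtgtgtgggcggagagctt
Cdhr1: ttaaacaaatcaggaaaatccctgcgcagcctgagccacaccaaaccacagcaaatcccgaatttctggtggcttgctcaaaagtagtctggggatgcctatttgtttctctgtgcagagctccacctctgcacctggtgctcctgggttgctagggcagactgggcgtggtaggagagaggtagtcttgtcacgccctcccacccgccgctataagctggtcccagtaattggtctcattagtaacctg

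Motifs were searched on both strands in these windows. The T-box core GGTGTGA was found in 0 of 6 promoters, where 3.33% of all 32851 promoters of the same length hold it. The shorter T-box letters AGGTGT, which overlap the core and were added after the sequences had been seen, were in 2 of 6 (Doc2g and Lbhd2, read as ACACCT on the strand shown) and in 11.8% of all promoters. The Ebf letters CCCNNGGG were in 1 of 6, as CCCCAGGG between 105 and 98 bases before the start of Doc2g, and in 11.8% of all promoters. The homeodomain core TAATTA was in 0 of 6 and in 4.84% of all. A match is a description of letters and not a site of binding, and Cdhr1 is shown as a promoter with none of these letters.

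In the mPFC of CUMS mice each of the 8 genes had a lower mean than in controls. The median log2 ratio of CUMS over control was -1.70, against -0.01 over the 16438 genes with at least 3 fragments in either group. Of the 8 genes, 7 were lower by more than 1.5-fold, the fold threshold of the study, and the same 7 by more than 2-fold. Over all genes these shares were 6.09% and 2.19%, and 10.2% of the 8237 genes within the range of levels of the 8 genes were lower by more than 1.5-fold. The counting interval lay below no change in 8 of 8 genes and in 13.8% of all genes. Since the genes had been chosen on this contrast, nothing is read from these shares. The paper itself lists Doc2g and A230065H16Rik as lowered. Tbx21 at 2.13-fold and Cdhr1 at 1.48-fold were the genes just inside and just outside the threshold.

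**Figure D1:**
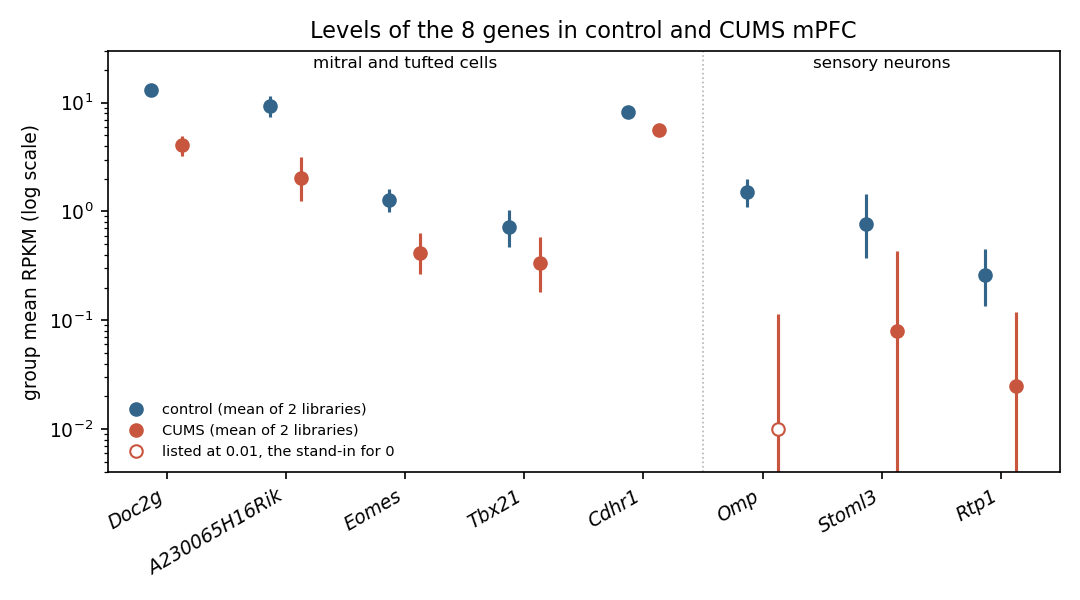
Group mean RPKM (log scale) of the 8 genes in control (blue) and CUMS (red) mPFC, each the mean of 2 libraries, with vertical lines for the exact 95% counting interval, which runs off the bottom of the plot where it reaches 0 or near it. Doc2g, Lbhd2 (labelled A230065H16Rik) and Cdhr1 stand highest, and Omp is listed at 0.01 in CUMS (open circle).

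Doc2g encodes a protein with paired C2 domains, of a family that acts in vesicle release. Doc2g (gene 60425, chromosome 19, 4003385 to 4007005) had a mean of 12.95 RPKM in control, or 283 fragments from both libraries, and 4.05 RPKM in CUMS, or 89 fragments. The log2 ratio was -1.68 (counting interval -2.04 to -1.33), which is 3.20-fold lower. Of 5042 other genes whose mean level lay within 2-fold of that of Doc2g, 6 had a ratio as low. In the GENCODE annotation its exons share 1926 bases with Gm49405, a gene on the same strand that is not in the table, so that reads of the pair could not be told apart.

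Lbhd2 (A230065H16Rik, gene 380787, chromosome 12, 111402049 to 111412092) is a short gene with an LBH domain. The level was 9.24 RPKM in control, or 90 fragments, against 2.03 RPKM in CUMS, or 20 fragments. With a log2 ratio of -2.19 (-2.96 to -1.47), or 4.55-fold lower, it had the lowest ratio among the 5 mitral and tufted genes. Of 4500 other genes of like level, 2 had a ratio as low. The length used for RPKM was 657 bases, the shortest of the 8 genes, and the longest was 4364 bases for Cdhr1.

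Eomes and Tbx21 encode T-box transcription factors that mitral and tufted cells share. Eomes (gene 13813, chromosome 9, 118478186 to 118486132) was at 1.27 RPKM in control (69 fragments) and 0.415 RPKM in CUMS (23 fragments), a log2 ratio of -1.61 (-2.34 to -0.90). Tbx21 (gene 57765, chromosome 11, 97098007 to 97115331) was at 0.715 RPKM in control (27 fragments) and 0.335 RPKM in CUMS (13 fragments), a log2 ratio of -1.09 (-2.14 to -0.06). The interval of Tbx21 came close to no change, and 138 of 2068 other genes of like level had a ratio as low. For Eomes this was 41 of 2369 genes. The exons of Eomes share 118 bases with the antisense gene Gm33460, which is not in the table, and the use of strand in counting is not stated.

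Cdhr1, a cadherin-related surface protein also known as protocadherin 21, differed least. Cdhr1 (gene 170677, chromosome 14, 37077849 to 37098347) was at 8.28 RPKM in control (533 fragments) and 5.60 RPKM in CUMS (363 fragments). The log2 ratio was -0.56 (-0.76 to -0.37). This interval did not overlap those of Doc2g, Lbhd2, Eomes, Omp and Rtp1, and it overlapped those of Tbx21 and Stoml3. Of 4809 other genes of like level, 106 had a ratio as low.

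Together the 5 mitral and tufted genes held 1002 fragments in control and 508 in CUMS, a log2 ratio of -0.99 (-1.15 to -0.84). Cdhr1 gave most of these fragments. Without it the other 4 genes held 469 and 145 fragments, a log2 ratio of -1.70 (-1.98 to -1.43), or 3.26-fold lower.

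The genes of sensory neurons were scarcer. Omp encodes the olfactory marker protein, which fills mature olfactory sensory neurons. Omp (gene 18378, chromosome 7, 98143359 to 98145447) reached 1.51 RPKM in control with 48 fragments, whereas its CUMS value was 0.01, which stands in for 0 in the table. Against a floor of 3 fragments over the CUMS group, which is 0.093 RPKM for this gene, it was at least 16.2-fold lower. The counting interval, which also takes in the error of the control value, ended at 12.6-fold lower (log2 ratio of -3.66). Of 2306 other genes of like level, 0 had a ratio as low as this bound. Omp lies within the span of Capn5 on the same strand, but their exons share 0 bases, and Capn5 was at 20.4 RPKM in control and 24.5 RPKM in CUMS.

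Stoml3 encodes a stomatin-like membrane protein of the cilia of sensory neurons, and Rtp1 encodes a protein that helps odorant receptors reach the cell surface. Stoml3 (gene 229277, chromosome 3, 53488707 to 53508863) was at 0.77 RPKM in control (10 fragments) and 0.08 RPKM in CUMS (1 fragment), a log2 ratio of -3.27 (-8.77 to -0.52). Rtp1 (gene 239766, chromosome 16, 23429133 to 23433960) was at 0.26 RPKM in control (12 fragments) and 0.025 RPKM in CUMS (1 fragment), a log2 ratio of -3.38 (-9.01 to -0.84). Both intervals are wide because the CUMS value rests on 1 fragment. With CUMS raised to 3 fragments, the log2 ratios were -1.72 and -2.01, and 45 of 1957 and 15 of 1624 other genes of like level had a ratio as low.

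The 3 sensory neuron genes held 70 fragments in control and 2 in CUMS, a log2 ratio of -5.14 (-8.21 to -3.23). Omp gave 48 of the control fragments. The summed interval did not overlap that of the 4 mitral and tufted genes without Cdhr1, but those of Stoml3 and Rtp1 each did. Since the genes had been chosen on this contrast, no difference between the cell types is read from it. Levels under 3 fragments were not resolved at this depth. All 8 genes reached 3 fragments in control and 5 did so in CUMS.

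The order of levels per length also differed between the groups. In control Doc2g stood first, followed by Lbhd2 and Cdhr1, whose counting intervals overlapped. Then came Omp, Eomes, Stoml3 and Tbx21, each with an interval that overlapped that of its neighbor, and Rtp1 was lowest. In CUMS Cdhr1 stood first, and Doc2g, Lbhd2 and Eomes followed with intervals apart from each other. Omp held rank 4 in control and rank 8 in CUMS, although the intervals of neighbors from Eomes downwards overlapped.

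**Figure D2:**
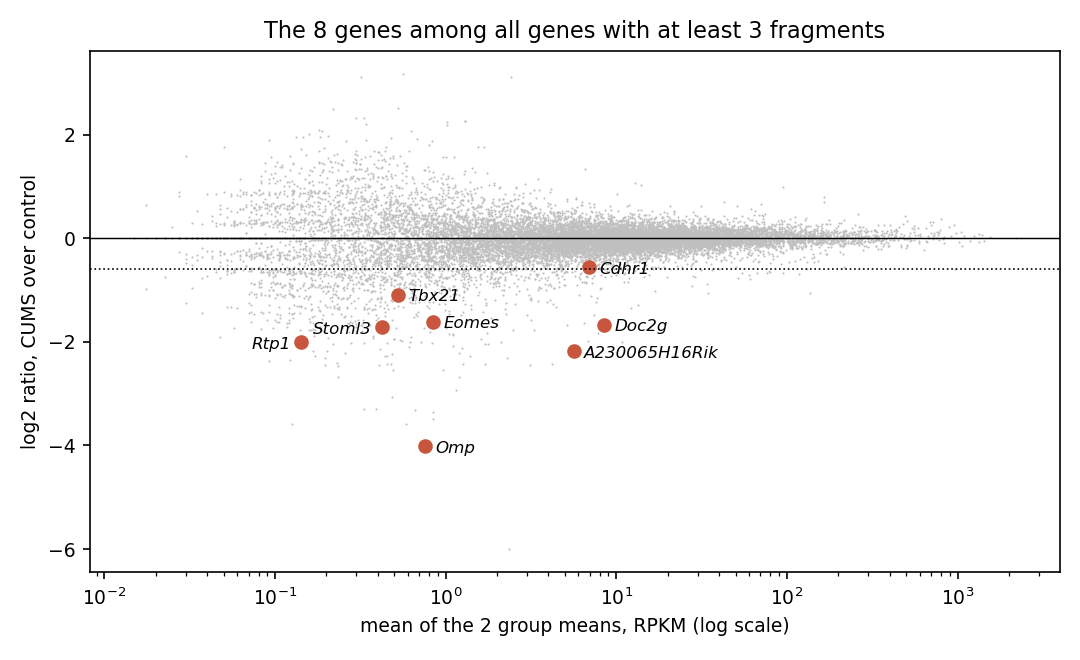
Each point is a gene with at least 3 fragments in either group, by the mean of the group means (RPKM, log scale) and the log2 ratio of CUMS over control, with values under 3 fragments raised to 3. The 8 genes (red) lie below 0, and all but Cdhr1 lie below the dotted line of a 1.5-fold lower value. Doc2g and Lbhd2 (labelled A230065H16Rik) lie below most genes of their level, of which 6 and 2 had a ratio as low. Tbx21 and Stoml3 lie where low counts spread the ratios. The 8 genes had been chosen by their lower means in CUMS, so their place is a description only.

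Relatives of these genes in the same protein families were set beside them. Of 18 relatives, 15 were in the table and 13 had at least 3 fragments. None of the 13 was lower by more than 1.5-fold (6.09% of all genes were), and 1 was higher by more than 1.5-fold (4.13% were). Their median log2 ratio was -0.02. The higher gene, named after its values had been seen, was the interferon-induced Rtp4 at 1.05 RPKM in control and 1.80 RPKM in CUMS (0.78, 0.04 to 1.58). Doc2a, a calcium sensor of vesicle release, was at 35.8 RPKM in control and 40.4 RPKM in CUMS, a log2 ratio of 0.18 (0.07 to 0.28). Doc2b was at 16.2 and 12.5 RPKM, a log2 ratio of -0.38 (-0.51 to -0.24). Both lay above the interval of Doc2g. The T-box gene Tbr1, found in mitral cells but also in deep-layer cortical neurons, was at 36.8 RPKM in control and 45.2 RPKM in CUMS, a log2 ratio of 0.30 (0.21 to 0.38), outside the intervals of Eomes and Tbx21. Among the stomatin relatives, Stoml1 and Stoml2 had log2 ratios of 0.13 (0.01 to 0.26) and -0.02 (-0.17 to 0.13). The closest relative of Rtp1, Rtp2, was at 1 fragment in both groups, so that no fold is given.

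Other genes of the olfactory system were described from lists that had been set up with earlier results of these data known. Of 11 further genes of mitral and tufted cells, 4 were lower and 0 were higher by more than 1.5-fold. The shares over all genes were 6.09% and 4.13%. The paper itself lists Nts, 1 of the 4, as lowered, so nothing is read from the count. The median log2 ratio of the list was -0.10, or -0.54 among Nmb, Nts, Reln and Tbr1, which reached 5 RPKM in a group. Tbr1, the highest gene of the list, lay above no change (0.30, 0.21 to 0.38). The neuropeptide gene Nts was at 9.83 RPKM in control and 3.16 RPKM in CUMS (log2 ratio -1.64, -2.10 to -1.21), and Nmb, neuromedin B of tufted cells, was at 5.75 and 2.94 RPKM (-0.97, -1.62 to -0.29). The homeobox gene Barhl2 was at 0.24 RPKM in control with 8 fragments and had 0 fragments in CUMS, which is at least 2.77-fold lower against the floor, with a counting interval that ended at a log2 ratio of -0.78. Lhx5, the remaining gene of the 4 and named after its values had been seen, rested on 13 and 7 fragments (-0.81, -2.47 to 0.53). Reln, which cortical neurons also make, was at 6.41 and 5.98 RPKM (-0.10, -0.23 to 0.02), and the interval of Spp1 (0.53) spanned no change as well.

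Of 15 genes of granule and periglomerular cells, the interneurons of the bulb, 6 were lower and 0 were higher by more than 1.5-fold. Over all genes these shares were 6.09% and 4.13%. The paper itself lists Th, Calb2 and Gng4 as lowered, so nothing is read from the count. The median of the list was -0.25, and its levels summed to 363 RPKM in control, against 286 RPKM in CUMS. Whether bulb cells gave these reads was not tested. Calb2, the calcium-binding protein calretinin, was at 36.1 and 19.1 RPKM (-0.92, -1.09 to -0.74). Gng4, a G protein gamma subunit, was at 36.2 and 21.6 RPKM (-0.74, -0.86 to -0.63). Pcp4l1, the most abundant gene of the list, was at 119.8 and 86.7 RPKM (-0.47, -0.55 to -0.38), while the also abundant Meis2 (-0.10, -0.18 to -0.02) and Synpr (0.15, 0.06 to 0.25) lay closer to 0. Th, Sp8, Pbx3 and Scgn were the other genes lower by more than 1.5-fold. Scgn, the calcium-binding protein secretagogin and named after its values had been seen, was at 2.87 and 0.53 RPKM (-2.44, -3.54 to -1.52), the lowest ratio of the list. Of 10 genes of the neuroblasts that migrate to the bulb, 4 were lower and 0 higher by more than 1.5-fold, and all 10 had a ratio below 0 (median -0.45). The 4 were Dlx1, Dlx2, Dlx5 and Dlx6, regulators of inhibitory neurons, with log2 ratios from -0.84 to -0.60.

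The lists of sensory neuron genes beyond Omp, Stoml3 and Rtp1 had medians nearer to no change. Much of their summed level came from genes of high level. Gnb1 alone was at 237 and 258 RPKM, within a transduction sum of 461 and 476 RPKM. Whether sensory neurons gave these reads was not tested. Of 14 odor transduction genes, 2 were lower and 0 higher by more than 1.5-fold, and the median was -0.07. The shares over all genes were 6.09% and 4.13%. Gnal, the G protein alpha subunit that couples to odorant receptors and is also abundant in the striatum, was at 52.5 and 51.2 RPKM (-0.04, -0.10 to 0.03). The lower genes, named after their values had been seen, were the chloride channel gene Ano2 at 1.86 and 1.11 RPKM (-0.74, -1.21 to -0.29) and the channel subunit gene Cngb1 with 14 and 6 fragments (-1.32, -2.90 to 0.24). The olfactory channel gene Cnga2, also named here after its values had been seen, rested on 7 and 6 fragments (-0.19, -2.08 to 1.56), too few to place it. Of 16 genes of receptor trafficking, regulators and identity with at least 3 fragments, 3 were lower and 2 higher, with a median of -0.02. S100a5, a calcium-binding protein of active sensory neurons, was at 2.51 RPKM in control with 16 fragments and had 0 fragments in CUMS, which is at least 5.37-fold lower against the floor, with a counting interval that ended at a log2 ratio of -1.96. The other lower genes, named after their values had been seen, were the adhesion gene Kirrel2 (-0.64, -0.93 to -0.35) and Gm581 with 6 and 4 fragments, and the higher genes were Reep6 (0.61, 0.32 to 0.88) and Ebf2 with 7 and 13 fragments. Gap43 (0.16, 0.08 to 0.23), Reep1 (0.16, 0.08 to 0.24) and Lhx2 (0.11, -0.04 to 0.24), which cortical neurons also express, lay above 0. Kirrel3, also among the 5 genes of highest level in the list, lay below 0 (-0.14, -0.26 to -0.01). Of the 16 genes, 8 were below 0 and 8 were above it.

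Odorant receptors are the genes by which each sensory neuron detects its odors. The table held 47 Olfr genes, 36 with a value above the stand-in for 0 in control and 31 in CUMS. Their fragments summed to 1000 in control and 852 in CUMS, a log2 ratio of -0.24 (-0.38 to -0.11). Most of these fragments belonged to 3 genes, Olfr613 (6.81 and 5.60 RPKM), Olfr856-ps1 (14.41 and 12.03 RPKM) and Olfr287 (2.18 and 1.62 RPKM). Without them the sums were 76 and 87 fragments, the log2 ratio was 0.18 (-0.28 to 0.65), and the median was 1 fragment per gene in both groups. Receptor genes form a large family of similar sequences, and only uniquely aligned reads were counted, so that single receptor values are uncertain.

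**Figure D3:**
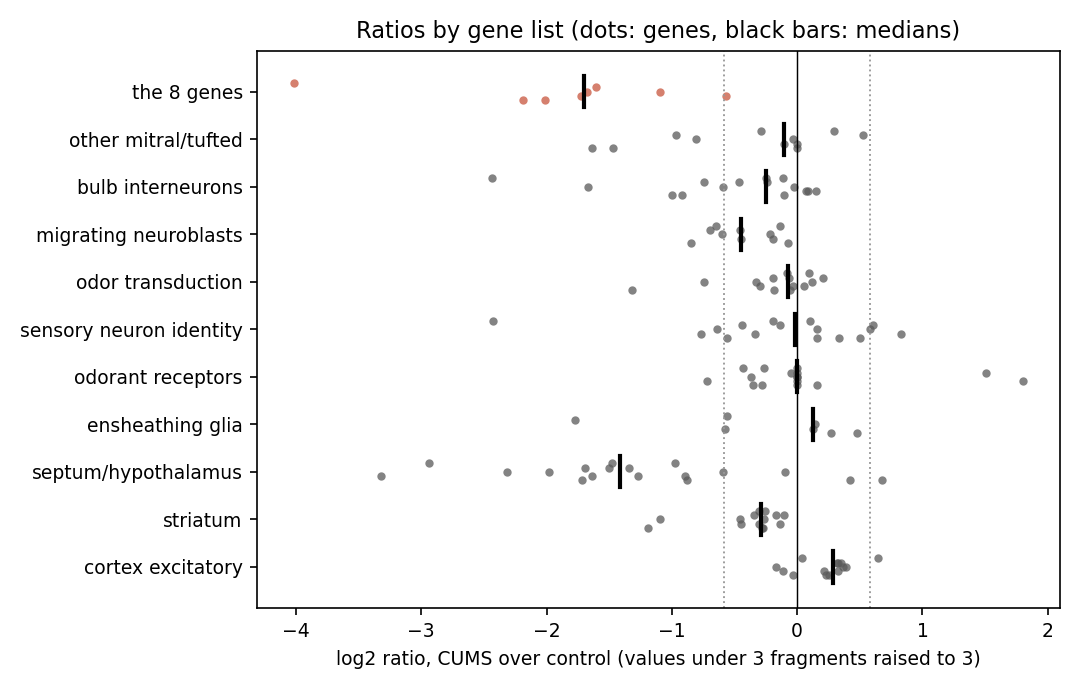
Log2 ratio of CUMS over control for the genes of each list (dots) with at least 3 fragments in either group, values under 3 fragments raised to 3, and the median of the list (black bar). Dotted lines mark 1.5-fold. The medians of the 8 genes (-1.70) and of the septum and hypothalamus list (-1.41) lie lowest, and that of cortical excitatory neurons (0.28) lies highest. All lists were set up with earlier results of these data known.

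Markers of neighboring regions were described too, from lists set up with earlier results of these data known. The paper itself lists Zic1, Ecel1, Baiap3, Dlk1, Magel2 and Peg10 as lowered, so nothing is read from the septal and hypothalamic count. Over all genes 6.09% were lower and 4.13% higher by more than 1.5-fold. Of 18 septal and hypothalamic genes with at least 3 fragments, 15 were lower and 1 was higher by more than 1.5-fold (median -1.41), and all 20 genes summed to 114 RPKM in control, against 40.6 RPKM in CUMS. Among them Zic1, a transcription factor of the septum and of the olfactory bulb, was at 17.5 and 6.92 RPKM (-1.34, -1.52 to -1.16). All 14 striatal genes were below 0, with 2 lower by more than 1.5-fold (median -0.29). They were Isl1 (-1.19) and Six3 (-1.09), transcription factors named after their values had been seen. The striatal sum was 670 and 551 RPKM. Of 14 genes of cortical excitatory neurons 11 were above 0 and 1 was higher by more than 1.5-fold (median 0.28), the homeobox gene Emx1 (0.65, named after its values had been seen). The sum of these genes was 1684 and 2013 RPKM. None of these 3 lists had a gene at the stand-in for 0 in control, and 1 septal and hypothalamic gene was there in CUMS. Their part in the lower olfactory genes was not tested. In bulk tissue, fewer cells of a type and less RNA per cell cannot be told apart.

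Cells other than olfactory neurons that use these genes were checked in the same way. Of 13 genes of T cells and natural killer cells, which use Eomes and Tbx21, 7 were in the table and 5 of these (Cd3d, Cd3e, Cd8a, Il2rb and Nkg7) had 0 fragments in control and from 1 to 4 in CUMS. Cd4, which microglia also make, held 75 of the 76 fragments of the list in control. The list summed to 1.73 RPKM in control, against 2.54 RPKM in CUMS. The part of lymphocytes in the values of Eomes and Tbx21 was not tested. Photoreceptor genes, set beside Cdhr1, summed to 2.08 and 1.88 RPKM, and Sag, the highest of them, was at 1.17 and 1.27 RPKM (0.12, -0.68 to 0.85). Of 7 genes of olfactory ensheathing glia, which wrap the axons of sensory neurons, the median was 0.12. Over all genes 6.09% were lower by more than 1.5-fold, and here 1 gene was, which the paper also lists as lowered. It was Ngfr, the neurotrophin receptor p75, at 5.10 RPKM in control and 1.495 RPKM in CUMS (-1.77, -2.16 to -1.39), while Frzb (0.12, -0.13 to 0.37) and Fabp7 (0.48, 0.20 to 0.75) were not lower.

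The 10 other genes with at least 2 RPKM whose ratio was nearest to the median of the 8 genes included Ecel1, Baiap3, Th, Nts, Ngfr, Slc10a4, Agt, Slc18a3 and Chat, of 11703 candidates. Each lay within 0.16 of -1.70 on the log2 scale. Th encodes the enzyme that makes the precursor of dopamine and marks periglomerular cells of the bulb among other neurons, and it was at 7.78 RPKM in control and 2.44 RPKM in CUMS. Chat and Slc18a3 encode the enzyme and the vesicular transporter of acetylcholine, and they were at 2.75 and 2.73 RPKM in control and at 0.945 and 0.77 RPKM in CUMS. Agt, which encodes angiotensinogen of astrocytes, was at 12.2 and 3.46 RPKM. The transporter gene Slc10a4 was at 4.77 and 1.59 RPKM. Likeness here rests on a single ratio of group means. Of all candidates, 21 had a ratio at or below -1.70.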

How the data were processed

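mRNA was sequenced from the mPFC of 2 control and 2 CUMS libraries. Per the methods of the study, poly(A) RNA was sequenced on Illumina HiSeq, and reads were trimmed with SolexaQA and aligned to mm10 with TopHat 1.0.12 and Bowtie 0.11.3 (versions also in the submitters' processing notes), with only uniquely aligned reads used for the level of a gene. The annotation and strand use were not stated. The deposited RPKM had been averaged over the libraries of a group by the authors, with 0.01 in place of 0. The columns of fold, direction and NOISeq probability hold the study's own comparison and were not used. The methods name a minimum of 0.5 RPKM, but only 14257 of the 17778 genes reached it in either group, and Rtp1 did not.

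Log2 ratios were computed from the group means without a pseudocount, and a value under 3 fragments over a group was raised to that floor for calls, lists and medians. When both groups were at or under the floor, the ratio was set to 0. Fragments were estimated from the step that 1 fragment adds to mean times length, found on products under 350 of genes below 1000 bases (406 control and 392 CUMS values, of which 86.5% and 86.2% lay within 0.15 of a whole step). The estimated depth lies below the read numbers of the study, a difference that was not resolved, and a larger depth would narrow the intervals. The step and the Clopper-Pearson intervals were tested on simulated counts without spread among mice. The simulated libraries had a depth near the estimated one. That test therefore cannot decide between the estimated depth and the read numbers of the study. PCR reads are not independent molecules, so that intervals and floors cover counting error only. Genes of like level are those whose mean over both groups lies within 2-fold.

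Members and lists were chosen with earlier results of these data known. Named were the 8 genes, up to 5 of highest level in each list, genes above the floor in only 1 group, and the 10 genes of nearest ratio, of which 1 is not reported here. RefSeq names matched through gene identifiers. Protein identity was not computed, since protein sequences were not used here. Python 3.11.15, NumPy 2.4.6, pandas 2.3.3, SciPy 1.17.1 and Matplotlib 3.10.9 were used.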

Additional observations from a re-analysis of the deposited data

How the results depend on the processing

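No paired analysis was possible because the values analysed here are means of each group, and for the same reason no replicate could be left out. For the 8 genes, 43 of 48 ratios under alternatives stayed within the counting interval, and all 48 stayed below 0. With a pseudocount of 0.5 RPKM, Omp was at -1.98 and Rtp1 at -0.53. With a pseudocount of 1 RPKM, Eomes was at -0.68, Omp at -1.31 and Rtp1 at -0.30, as a pseudocount near or above the level itself draws a ratio towards 0. Rescaling moved each ratio by 0.015 or less. The count of genes lower by more than 1.5-fold stayed within 1.5 times of 7 under its alternatives. Of 67 list medians, 58 did not change sign and moved by less than the SD among the genes of the list. This SD is wide, and with at least 5 RPKM the median of the other mitral and tufted genes was -0.54 in place of -0.10. Sensory neuron identity genes were at -0.16 with at least 0.5 RPKM, and odorant receptors at -0.28 in place of 0 with at least 0.5 RPKM. The relatives turned to 0.055 with at least 0.5 or 5 RPKM, sensory neuron identity genes to 0.11 and ensheathing glia to -0.22 with at least 5 RPKM, and photoreceptor genes to 0.12 with at least 0.5 RPKM. Genes of supporting cells and glands moved to 0.80 with at least 0.5 RPKM, and lymphocyte genes, at 0.29, moved to 0.34 with at least 0.5 RPKM, to 0 without a filter and to 0.21 with a pseudocount of 0.5 RPKM. The cause of these changes was not tested. Odorant receptors without the 3 with the most fragments, an alternative added after seeing the data, turned to 0.18. Depth limits Omp, Stoml3 and Rtp1, which rest on 0 or 1 fragment in CUMS.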

Other observations

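The other receptor families of smell were scarce as well. The table held 24 vomeronasal receptor genes, the pheromone receptors of the vomeronasal organ, which summed to 329 fragments in control and 353 in CUMS (log2 ratio 0.09, -0.13 to 0.31). Vmn1r58 gave most of them, at 5.42 and 5.64 RPKM (0.06, -0.22 to 0.33). The 2 trace amine receptor genes in the table, Taar3 and Taar4, shared 1 fragment in each group. Of 12 genes of supporting cells and glands of the olfactory epithelium, 6 were in the table, and they summed to 1.41 RPKM in control and 1.95 RPKM in CUMS. Cbr2 was the highest of them, at 0.76 and 1.32 RPKM (0.80, -0.28 to 2.06), and Cyp2a5 rested on 0 and 1 fragments.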
